A study of Mus musculus with 3 samples.

Results

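The cells described here were taken as somitic paraxial mesoderm in which no Pax1 was counted: 1191 of the 14777 mouse embryo cells in the deposited single-cell table. They were chosen by their own raw molecule counts (unique molecular identifiers, UMIs). A member had at least 2 UMIs of Tcf15 and at least 1 of Meox1, none of Pax1 or of the endothelial gene Cdh5, and under 50 UMIs per 10000 in the sum of the heart muscle genes Myl7, Tnnt2, Ttn and Myl4. Another 744 cells met every term but that for Pax1 and serve below as the nearest comparison. All members came from C57BL/6 embryos carrying Mesp1-Cre, which is active in early mesoderm leaving the primitive streak, and the Ai9 reporter, whose tdTomato then marks the descendants of those cells. Control embryos were Wls fl/+, so they also carried Cre and 1 floxed allele, and mutant embryos were Wls fl/fl. Embryos of E8.0, E8.5 and E9.5 were labelled by lipid-anchored barcodes (MULTI-seq), pooled, sorted for tdTomato and captured on the 10x Chromium v3 platform in 3 runs.

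Paraxial mesoderm lies on both sides of the neural tube and is cut into blocks, the somites. Each somite is epithelial at first. Its ventral part then loosens into sclerotome, which expresses Pax1 and Pax9 under Hedgehog signals and forms the vertebrae and ribs, while its dorsal part stays epithelial as the Pax3-expressing dermomyotome, which gives rise to muscle and dermis. Tcf15 (Paraxis) is needed for the epithelial state of somites, and Meox1 and Foxc2 are transcription factors of early somites and sclerotome. Wntless, the product of Wls, carries Wnt proteins to the cell surface, so a cell without it can still receive Wnt but cannot secrete it. Dermomyotome is known to receive Wnt from the neural tube and surface ectoderm, tissues outside the Mesp1-Cre lineage.

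The unit of every comparison was the barcode sample, that is all cells that share a run, a MULTI-seq barcode, a stage and a genotype in the authors' cell table. There were 22, of which 10 were mutant and 12 control, and 15 held at least 10 members. Nothing states whether a barcode marked 1 embryo or several, so p-values measure the spread between barcode samples. At E8.0 the controls Bar24, Bar26 and Bar29 held 20, 67 and 58 members and the mutants Bar25, Bar27 and Bar28 held 27, 67 and 72, all in run 1. At E8.5 the control Bar3 held 229 and the mutant Bar1 held 44, in run 2. At E9.5 the controls Bar22 and Bar23 held 176 and 169 in run 1, Bar4 held 25 in run 2 and Bar9 held 55 in run 3, while the mutants Bar19, Bar20 and Bar21 held 40, 68 and 54, all in run 1. Sample values below follow these orders. The genotype contrast at E9.5 therefore rests on 3 mutants and 2 controls of run 1, and E8.5 has values but no test.

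Members had a median of 22425 UMIs (2947 to 70999) and 5349 genes. The median was 25064 UMIs at E8.0 and 20485.5 at E9.5, where control members had 21442.5 and mutant members 18714.5, and it was 12616 in run 3 against 22454 in run 1. Across runs 23 cell barcodes recurred, and 4 members carried such a barcode. Samples of 1 group differed by more than counting noise in each of the 10 pairs examined within a run and stage (chi-square per degree of freedom 1.89 to 3.36). Sums over different cells of 1 embryo can differ so as well, so barcode samples were counted as the authors' table names them, and whether 2 of a group, such as the E9.5 controls Bar22 and Bar23, share an embryo or litter was not tested. Expressed Y-linked genes and Xist showed that the 3 E8.0 mutants were male, while 2 of the E8.0 controls were female and Bar29 held cells of both sexes; at E8.0 genotype and sex cannot be told apart. At E9.5 Bar19 and Bar21 were male and Bar20, Bar22 and Bar23 female. Both controls behind the E9.5 genotype contrast were thus female, and Bar20 was its only female mutant. With a term for the share of male cells that contrast rests mainly on Bar20.

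The label is described here by Foxc2. That gene was no term of the rule but was named with it as a marker of these cells, so it is not an independent check. Foxc2 was found in 70.8% of members, in 81.3% of Pax1-positive somitic cells, in 23.5% of all cells outside the somitic classes, in 47.1% of cells with Cdh5 and in 11.2% of cardiac cells. Its level was 129 CPM (UMIs of a gene per 1000000 UMIs of the summed cells) in members and 23.3 CPM in the other cells. It depended on stage, with a mean over member samples of 232.6 CPM at E8.0 and 88.65 CPM at E9.5. The later stage held 606 of the members. Near the edge of the rule the 163 cells with 2 Tcf15 UMIs had 104 CPM of Foxc2 and the 1028 with more had 132 CPM, whereas the 317 cells just outside, with 1 Tcf15 UMI, had 62.8 CPM. The 145 members with 1 Meox1 UMI had 111 CPM, and the 238 cells just outside, with none, had 87.0 CPM. On the Pax1 side the border was not one of Foxc2, since 152 cells left out for a lone Pax1 UMI had 149.6 CPM. Only 2 cells were left out by the heart muscle term alone and 14 by Cdh5.

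Many of the genes of largest fold in members over cells outside both somitic classes were also found in Pax1-positive somitic cells, and some were higher there. These values describe how the chosen cells look and carry no test. Pax3, the dermomyotome regulator, was at 143 CPM in members, 5.88 CPM in the other cells and 29.1 CPM in Pax1-positive somitic cells, and in 60.0% of members against 6.66% of the other cells. Dmrt2, which acts in the dermomyotome epithelium, was at 53.8 against 0.743 CPM, with 8.01 CPM in Pax1-positive cells. Sim1 marks the lateral dermomyotome and was at 18.6 against 0.837 CPM, with 7.003 CPM in Pax1-positive cells. Fst, the activin and myostatin antagonist, was at 392 against 62.5 CPM and at a like 329.9 CPM in Pax1-positive cells. Other genes of large fold were higher in Pax1-positive cells than in members. Meox2, the paralog of Meox1, was at 69.3 CPM in members, 3.08 CPM in the other cells and 98.0 CPM in Pax1-positive cells. Aldh1a2, which makes retinoic acid in somites, was at 174, 39.7 and 308 CPM in the same order, Foxd1 at 244, 68.0 and 473 CPM and Arg1 at 238, 72.8 and 453 CPM. Ntn1, Smoc1 and Lrig1 were also among the 20 genes of largest fold, taken among genes found in at least 25% of members and with 5 CPM added to both sides of the fold.

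Members were not uniform. To compare cells of unequal depth, the 1131 members with at least 10000 UMIs were thinned to that number. Uncx, which marks the posterior part of each somite, was then found in 150 cells and Tbx18, which marks the anterior part, in 178, but only 2 cells had both. Tbx18 was thus found in 1.33% of Uncx-positive and 17.9% of Uncx-negative members. Pax3 and Sox9, a cartilage and sclerotome regulator, also parted: Sox9 was found in 12.2% of the 572 Pax3-positive members and in 53.5% of the rest. Pax9, the sclerotome partner of Pax1, followed Sox9 (11.9% of Sox9-positive and 4.2% of Sox9-negative members) and was found in 3.15% of Pax3-positive and 10.4% of Pax3-negative members. Dmrt2 went with Pax3, in 41.6% of Pax3-positive and 6.80% of Pax3-negative members. Lbx1, of migrating limb muscle precursors, and Myf5, of myotome, did not part in this way: Myf5 was found in 14.0% of the 86 Lbx1-positive and in 15.7% of Lbx1-negative members. In thinned cardiac cells of these runs Pax3 was found in 2.46%, Sox9 in 10.1%, Tbx18 in 10.4% and Uncx and Lbx1 in 0. Pax3 was found in 6.44% of thinned cells with Cdh5 and in 3.65% of all thinned cells outside the somitic classes. The class thus held cells with anterior and with posterior somite markers, and Pax3-positive as well as Sox9-positive cells.

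Markers of other cell types were not zero in members: no gene of the blood, endothelium, heart muscle, neural, neural crest, epithelial or lateral plate lists was without a UMI. The embryonic globin Hbb-y was found in 100% of members. The 9 blood genes summed to 1451 to 1639.9 CPM at E8.0, and at E9.5 to 1434 to 14616 CPM in controls and 1794 to 8894 CPM in mutants. The 7 endothelial genes summed to 33.5 to 176 CPM at E8.0, to 11.7 to 62.7 CPM in E9.5 controls and to 63.1 to 295 CPM in E9.5 mutants. Their part in the results below was not tested.

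The share of cells that were members showed no difference between genotypes beyond the spread of samples, taking barcode samples of at least 50 cells. That left out 2 controls with 1 member each, Bar2 at E8.5 with 34 cells and Bar6 at E9.5 with 6 cells. At E8.0 it was 8.86% ± 2.97 (SD, n = 3) in controls and 9.77% ± 2.99 (SD, n = 3) in mutants, a difference of 0.17 in log2 odds (exact permutation test, two-sided, p = 0.7, where 3 against 3 cannot go below 0.1). At E8.5 the control Bar3 gave 9.13% and the mutant 9.03%. At E9.5 the 5 remaining control samples ranged from 1.22 to 9.83% (mean 5.72 ± 3.77, SD, n = 5) and the mutants from 1.75 to 9.91% (5.12 ± 3.02, SD, n = 6), a difference within runs of -0.14 in log2 odds (exact permutation test, two-sided, p = 0.75, smallest possible 0.00833). Within run 1 alone the difference was -0.50 (exact p = 0.4, smallest possible 0.1), in run 2, with 1 sample of each genotype, -0.72 with no test, and in run 3 0.58 (exact p = 0.667, smallest possible 0.333), so no run alone could pass 0.05. With 1 value per sample, the interval these shares leave is wide.

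The division of somitic cells between Pax1-positive and Pax1-negative states is the comparison nearest to the rule, and samples with at least 10 somitic cells were used. At E9.5 Pax1 was found in 46.1% ± 4.71 (SD, n = 4) of somitic cells of controls and in 33.9% ± 8.56 (SD, n = 4) of those of mutants. The controls Bar22, Bar23 and Bar9 lay between 48.1 and 48.6% and Bar4 at 39.0%, while the mutants Bar19, Bar20, Bar21 and Bar10 were at 37.5, 22.7, 32.5 and 42.9%. Only Bar10, from the shallow run 3 and with 14 somitic cells, reached above the lowest control. The test within runs used 7 samples, since Bar4, the lowest control, had no mutant partner in run 2. Within runs the difference was -0.85 in log2 odds (exact permutation test, two-sided, p = 0.1, smallest possible 0.05), so it did not pass 0.05, and it was -1.09 in run 1 alone and -0.28 between the 2 samples of run 3. Thinning every cell to 10000 UMIs left 5 samples and gave -1.16, and the stricter rule with 3 Tcf15 and 2 Meox1 UMIs left 5 and gave -1.26. Neither these nor run 1 alone can go below an exact p of 0.1. At E8.5 the shares were 42.3% in the control and 38.9% in the mutant. At E8.0 they were 0, 23.9 and 12.1% in controls and 15.6, 22.1 and 20.0% in mutants.

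**Figure D1:**
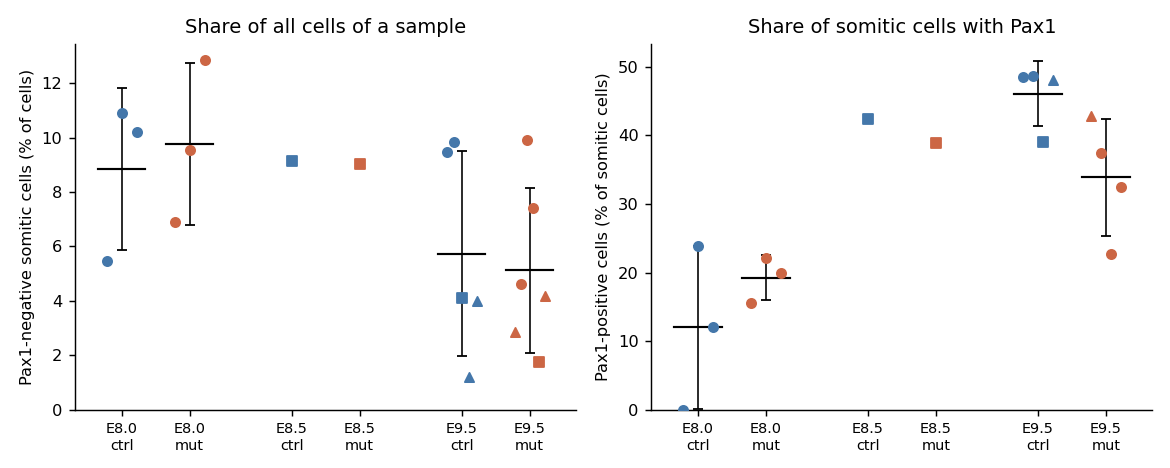
Member share of all cells (left) and Pax1-positive share of somitic cells (right), in percent, for each barcode sample by stage and genotype. Each point is a sample (blue control, orange mutant; circle run 1, square run 2, triangle run 3), with the group mean as a bar and the SD as a whisker. Member shares overlap at E8.0 and E9.5, and at E9.5 the Pax1-positive share is 46.1% ± 4.71 in controls and 33.9% ± 8.56 in mutants.

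Wls itself (chr3:159839672-159938664, GRCm38, forward strand) separated the genotypes in these cells at every stage. In E8.0 controls it was at 71.8, 56.3 and 53.4 CPM and in mutants at 4.57, 9.26 and 6.01 CPM. At E8.5 it was at 30.1 CPM in the control and 4.93 CPM in the mutant. At E9.5 the controls were at 32.6, 29.5, 16.8 and 31.8 CPM and the mutants at 8.04, 7.82 and 7.21 CPM. Every mutant sample lay below every control sample and none was at 0. The deposited counts do not show which part of the gene a read came from. The log2 fold change in mutants was -3.03 (SE 0.25, edgeR quasi-likelihood test, Benjamini-Hochberg adjusted p = 1.94e-05) at E8.0 and -2.0 (SE 0.23, edgeR adjusted p = 0.00245) at E9.5. The difference between these stages, 1.04 (SE 0.39), did not pass the edgeR test (adjusted p = 0.391).

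At E9.5 genes of the response to low oxygen and of glycolysis were higher in mutant members. Among them were Ndufa4l2, which lowers mitochondrial complex I activity, Ddit4 (Redd1), which restrains mTORC1, Bnip3, a receptor for the removal of mitochondria, and Pdk1, a kinase that inhibits pyruvate dehydrogenase. Over all genes 371 of 10182 passed the edgeR test in either direction (3.64%) and 203 were higher in mutants (1.99%). Of a 23-gene low-oxygen list, 21 were tested and 14 rose (edgeR adjusted p under 0.05) and none fell, 20 of the 21 were above 0, and their median log2 fold change was 1.51 against 0.012 over all genes tested. The list was written with these results known and is not independent evidence of its direction. Some of its genes were low in controls and could enter the test through the mutants. Control means were 4.87 CPM for Ndufa4l2, 2.80 CPM for Egln3 and 2.40 CPM for Ier3. Such a gene could be counted as a rise more readily than as a fall.

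Ndufa4l2 (chr10:127514967-127517154) was at 4.05, 3.05, 5.03 and 7.35 CPM in the E9.5 controls and at 71.0, 105 and 31.5 CPM in the mutants. All 3 mutants lay far above the highest control, and the log2 fold change was 4.29 (SE 0.47, edgeR adjusted p = 0.00228). Ddit4 (chr10:59949669-59951834, reverse strand) was at 19.3, 14.3, 11.7 and 25.7 CPM in controls and at 93.8, 150.0 and 64.0 CPM in mutants (log2 2.65, SE 0.31, edgeR adjusted p = 0.00254). Bnip3 (chr7:138890836-138909519, reverse strand) was at 17.2, 14.3, 21.8 and 20.8 CPM in controls and at 83.1, 92.4 and 66.7 CPM in mutants (log2 2.37, SE 0.18, edgeR adjusted p = 0.000359). In none of these did the groups overlap. Ndrg1, a growth arrest gene induced by hypoxia (chr15:66929318-66969640, reverse strand), was at 7.15, 7.38, 3.35 and 11.0 CPM against 32.2, 54.0 and 33.3 CPM (log2 2.5, SE 0.27, edgeR adjusted p = 0.00178). Pdk1 (chr2:71873224-71903858) was at 29.8, 29.0, 26.8 and 22 CPM against 85.8, 129 and 84.7 CPM (log2 1.80, SE 0.19, edgeR adjusted p = 0.00162). P4ha1, a collagen prolyl hydroxylase subunit, was at 42.6, 37.7, 55.4 and 39.2 CPM against 121, 154 and 124 CPM (log2 1.75, SE 0.14, edgeR adjusted p = 0.000443). Again no mutant fell within the control range, and Bar20 was the highest of the 3 mutants for each of these 6 genes.

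Ier3, an immediate early gene with a role in cell survival (chr17:35821684-35822923), was low in all samples and was at 2.38, 4.33, 1.68 and 1.22 CPM against 12.1, 39.8 and 12.6 CPM (log2 2.77, SE 0.55, edgeR adjusted p = 0.0254). Egln1 and Egln3, the prolyl hydroxylases that mark HIF for destruction, rose by 1.24 and 2.87 on the log2 scale. Vegfa, the vascular growth factor, rose by 1.21, with 18.6, 12.5, 18.5 and 24.5 CPM in controls and 37.5, 35.5 and 35.1 CPM in mutants. Ero1l, Kdm3a, Mxi1 and Bnip3l completed the 14, at 1.66, 1.34, 0.99 and 0.98. The 7 tested genes that did not pass were Bhlhe40 (2.61), Stc2 (1.51), Ankrd37 (1.47), P4ha2 (1.06), Higd1a (0.66), Car12 (0.63) and Hif1a (-0.18), with edgeR adjusted p of 0.0653 or more. The Hif1a transcript was at 69.5 ± 9.45 CPM (SD, n = 4) in controls and 65.3 ± 19.1 CPM (SD, n = 3) in mutants. Outside the list, Cox4i2, the subunit of cytochrome oxidase used at low oxygen, rose from 3.14 ± 2.12 to 32.3 ± 15.3 CPM (log2 2.89, SE 0.40, edgeR adjusted p = 0.00541).

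The stretches just before the RefSeq start of 3 of these genes show the core of the element that HIF binds. They are given 5′ to 3′ on the gene's strand (RefSeq, GRCm38.p6), with ACGTG or GCGTG, or their reverse complements CACGT and CACGC, in capitals, and are cut where the GENCODE gene begins. Ier3 spans chr17:35821463-35821683, Ddit4 chr10:59951835-59952020 on the reverse strand and Bnip3 chr7:138909520-138909756 on the reverse strand.
Ier3: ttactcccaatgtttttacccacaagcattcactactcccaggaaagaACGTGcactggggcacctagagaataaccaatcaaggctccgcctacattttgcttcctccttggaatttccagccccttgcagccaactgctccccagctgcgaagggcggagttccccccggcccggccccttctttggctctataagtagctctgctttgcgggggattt
Ddit4: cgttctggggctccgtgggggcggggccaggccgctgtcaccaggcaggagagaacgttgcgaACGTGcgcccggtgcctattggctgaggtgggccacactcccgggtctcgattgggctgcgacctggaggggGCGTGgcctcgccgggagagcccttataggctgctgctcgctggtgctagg
Bnip3: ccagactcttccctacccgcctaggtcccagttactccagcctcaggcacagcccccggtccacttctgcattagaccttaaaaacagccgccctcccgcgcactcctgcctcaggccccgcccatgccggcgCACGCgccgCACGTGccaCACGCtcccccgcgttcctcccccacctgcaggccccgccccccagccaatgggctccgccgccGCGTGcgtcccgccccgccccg
The Ier3 stretch holds 1 match, Ddit4 2 and Bnip3 5, of which the central 2 overlap in the palindrome CACGTG. In the 250 bases before the start the motif was present for 8 of the 10 risers of the list with an entry (80%), for 13 of 16 tested genes of the list (81.25%) and for 4670 of 7865 tested genes (59.4%), so the letters alone are common. Ndufa4l2, Ndrg1, Bnip3l and Ero1l had no entry. A match describes the letters and is not a bound site.

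Glucose uptake and glycolysis moved with the list above. Of 18 genes, 16 were tested, 11 rose and none fell, where 1.99% of all genes were higher. All 16 were above 0 with a median of 0.77, against 0.012 over all genes tested. This list too was written with these results known, and Pfkp, at a control mean of 6.01 CPM, could enter through the mutants. The neuronal-type glucose transporter Slc2a3 was at 25, 18.1, 16.8 and 28.2 CPM in controls and 59.0, 78.2 and 105 CPM in mutants (log2 1.93, SE 0.22, edgeR adjusted p = 0.00254), and the general transporter Slc2a1 rose by 1.08. Pfkp, the platelet-type phosphofructokinase, rose by 2.45 and Hk2, the inducible hexokinase, by 0.99. Pgk1, among the most abundant of these enzymes, was at 983, 1082, 1273 and 928 CPM in controls and 1894, 2443 and 1639 CPM in mutants (log2 0.96, SE 0.14, edgeR adjusted p = 0.00722). Slc16a3, the lactate exporter, rose by 0.93 on the log2 scale, and Tpi1, Pfkl, Gpi1, Pgam1 and Eno1 rose by 0.42 to 0.80. Ldha (0.48), Pkm (0.32) and Gapdh (0.18) did not pass, with edgeR adjusted p of 0.0667, 0.115 and 0.188.

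**Figure D2:**
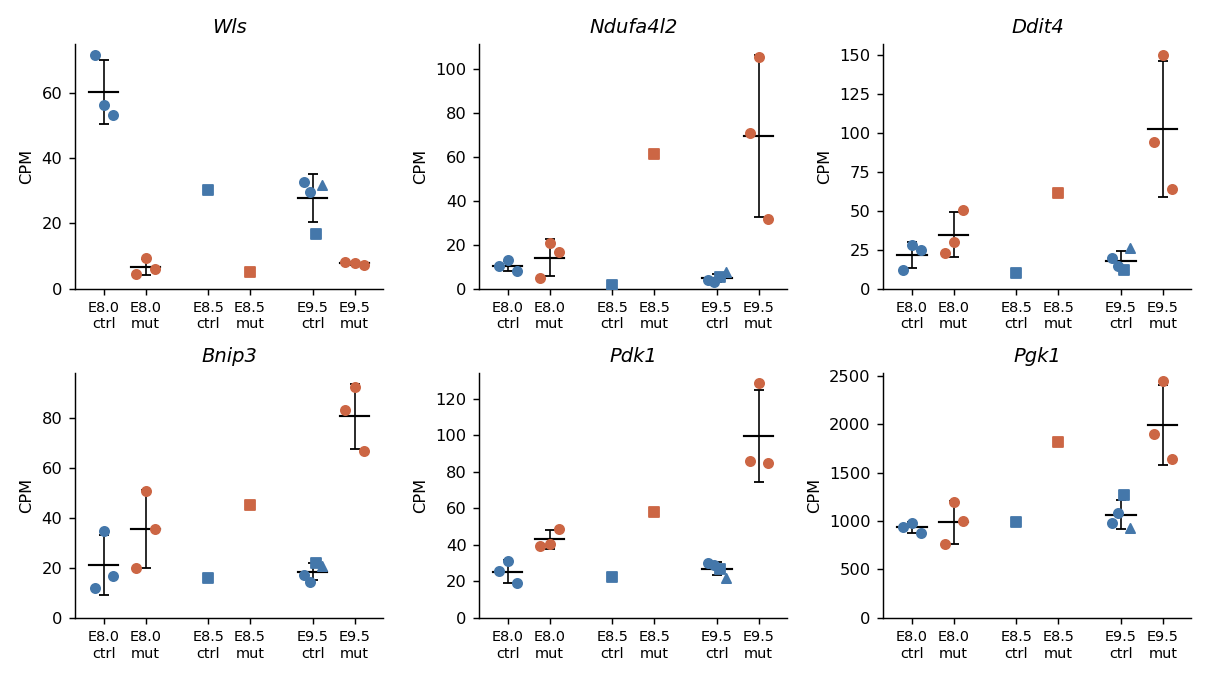
Levels in members (CPM) of Wls, Ndufa4l2, Ddit4, Bnip3, Pdk1 and Pgk1 in each barcode sample, by stage and genotype (blue control, orange mutant; circle run 1, square run 2, triangle run 3; bar mean, whisker SD). At E9.5 the 3 mutants lie above all 4 controls for the 5 low-oxygen and glycolysis genes, and below them for Wls.

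These folds stood on few samples. With the control Bar22 left out, 34 genes passed at E9.5 in place of 371, among them 8 of the low-oxygen list and 1 glycolysis gene, and without Bar23 27 passed, among them 6 and 2. The medians of the low-oxygen list stayed between 1.12 and 2.14 over all alternatives, the highest with a term for the share of male cells. Of 42 genes named at E9.5, 12 passed in every alternative that gave an adjusted p, and these were Wls, Ndufa4l2, Ddit4, Ndrg1, Bnip3, Pdk1, P4ha1, Slc2a3, Cox4i2, Letm1, Pinx1 and AC154486.2. Only P4ha1 had an adjusted p in all 16 alternatives, and the others had one in 15. A second tool, DESeq2, gave one for 4 of the 21 low-oxygen genes. Among the 12, AC154486.2 overlapped between groups at E9.5, as given below.

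The E8.5 samples, in another run, showed part of the same pattern as values without a test. Ndufa4l2 was at 1.5 CPM in the control and 61.1 CPM in the mutant, Ddit4 at 9.65 and 61.1 CPM, Bnip3 at 15.8 and 45.3 CPM, Pdk1 at 22.3 and 58.1 CPM and Pgk1 at 993 and 1813 CPM. Ndrg1, at 5.99 and 7.88 CPM, was nearly level.

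At E8.0, where 0.0625% of all genes passed, none of the 18 tested low-oxygen genes and none of the 17 glycolysis genes did. Above 0 were 17 of the 18 and 9 of the 17, with medians of 0.38 and 0.025 against 0.006 over all genes. Bnip3 was at 12, 34.6 and 16.9 CPM in controls and 19.8, 50.9 and 35.5 CPM in mutants, and Ndufa4l2 at 10.3, 12.8 and 8.11 CPM against 4.57, 20.8 and 16.8 CPM, so the groups overlapped. Pdk1 was at 25.6, 31.2 and 18.9 CPM against 39.6, 40.5 and 48.7 CPM, with no overlap but no call. Taken as E9.5 minus E8.0, the effect of genotype was larger by 3.69 for Ndufa4l2, 2.04 for Ddit4 and 1.69 for Bnip3 on the log2 scale at the later stage, but none passed the edgeR interaction test (adjusted p = 0.0577, 0.130 and 0.151). Over the whole lists, 20 of 21 low-oxygen genes (median 1.04) and 16 of 17 glycolysis genes (median 0.83) had a more positive effect at E9.5, against a median of 0.003 over all genes, and none was called.

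The same list was higher in the mutants' other cells. The summed low-oxygen list was at 754, 718, 825 and 809 CPM in E9.5 control members and at 1469, 2319.7 and 1341 CPM in mutant members. In Pax1-positive somitic cells of the same samples it was at 848, 784, 846 and 778 CPM against 2073, 3507 and 2545 CPM. In all other cells it was at 888, 878, 854 and 744 CPM against 2322, 1564 and 2527 CPM. In each class every mutant exceeded every control. Bar20 was the highest mutant among members and Pax1-positive cells and the lowest among the other cells.

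The somite programme itself showed no call at E9.5, where 371 of 10182 genes passed (3.64%). At that share a list this short can easily hold none. None of 16 genes of the somite list (transcription factors, with the enzyme Aldh1a2 and the matrix protein gene Tgfbi; median 0.021), 10 dermomyotome and myotome genes (median 0.34, 8 above 0), 7 sclerotome genes (median 0.31, 5 above 0) or 10 presomitic genes (median 0.072, 5 above 0) passed, where the median of all genes was 0.012. Pax3 was at 169, 144, 151 and 159 CPM in controls and 249, 148 and 227 CPM in mutants, which overlap (log2 0.39, edgeR adjusted p = 0.243). Foxc2, at 77.0 ± 22.3 CPM (SD, n = 4) and 104 ± 54.5 CPM (SD, n = 3), and Myf5 at 28.3 ± 11.3 and 29.9 ± 5.45 CPM, also overlapped. Lbx1, the limb muscle precursor gene, was at 16.4, 9.67, 6.71 and 30.6 CPM in controls and 36.2, 22 and 29.7 CPM in mutants and did not pass (log2 1.11, SE 0.28, edgeR adjusted p = 0.0569). Among 23 tested Hox genes only Hoxb1, an anterior Hox gene that responds to retinoic acid, passed, a share near the 3.64% of all genes. Hoxb1 was at 25.7, 20.9, 30.2 and 14.7 CPM against 41.5, 56.9 and 46.0 CPM (log2 1.08, SE 0.19, edgeR adjusted p = 0.0165), and it no longer passed without Bar22 or without Bar23.

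Genes that respond to Wnt did not pass in members either, although Wls was low. None of the 11 tested at E9.5, 10 at E8.0 or 13 over all stages was called, with medians of -0.16, -0.14 and -0.19. Over all genes 3.64%, 0.0625% and 1.27% were called, so lists this short would often hold no call. Those above 0 were 4 of 11, 4 of 10 and 1 of 13. Axin2, the general feedback target, was at 31.4, 30.0, 28.5 and 18.4 CPM in E9.5 controls and 24.1, 25.6 and 36.9 CPM in mutants. Lef1 (log2 -0.43), Sp5 (-0.41) and Ccnd1 (-0.35) had edgeR adjusted p of 0.206, 0.593 and 0.174. In simulated data of the same size 61% of genes changed by 1 log2 unit and 93% of those changed by 2 were recovered at E9.5. A shift of 1 log2 unit or less could thus be missed. The simulated counts had no run effect and took changed genes of any level, so these rates are not those of the Wnt response genes. Of 22 cell cycle genes only Mcm5, a replication helicase subunit, passed at E9.5, a share near the 3.64% of all genes. Mcm5 fell by 0.45 (edgeR adjusted p = 0.0334), a call lost without Bar19, Bar22 or Bar23.

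**Figure D3:**
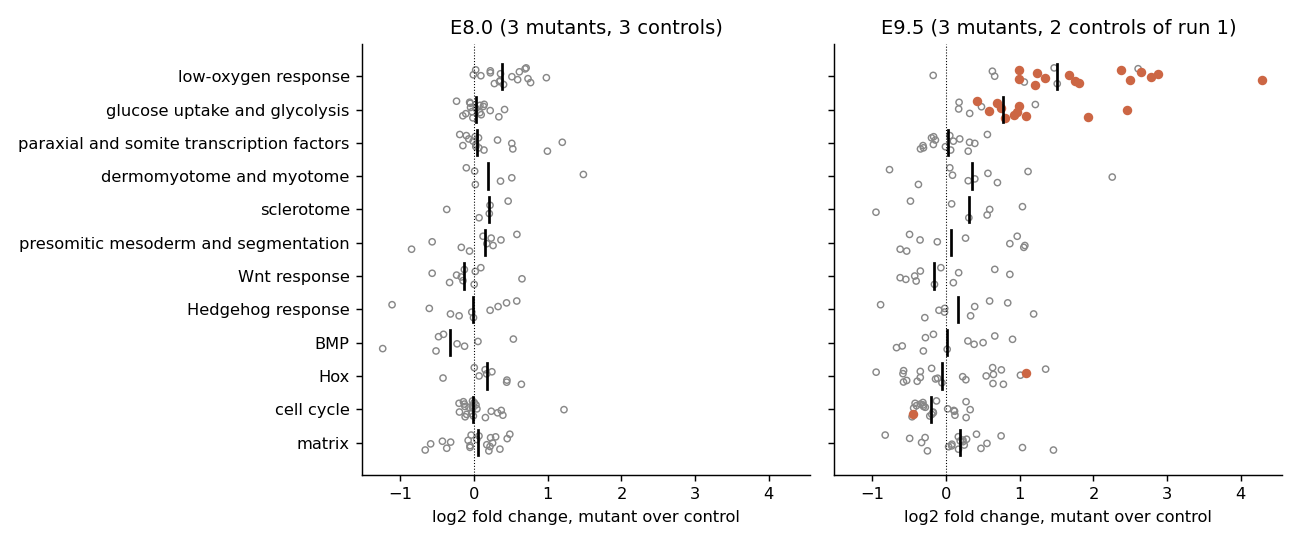
Log2 fold change in mutant against control members at E8.0 (left) and E9.5 (right) for each tested gene of the lists. Filled points passed the edgeR test (adjusted p under 0.05), open points did not, and the bar is the list's median. At E9.5 20 of 21 low-oxygen genes (14 passed) and all 16 glycolysis genes (11 passed) lie to the right of 0, the somite, dermomyotome and Wnt response lists have no filled point, and at E8.0 no list shown has one.

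The genes that fell at E9.5 formed no list fixed for this work. Pinx1, which acts at telomeres and in ribosome assembly, was at 86.7, 91.6, 119 and 114 CPM in controls and 28.1, 37.7 and 32.4 CPM in mutants (log2 -1.40, SE 0.14, edgeR adjusted p = 0.00152). Letm1, an ion exchanger of the inner mitochondrial membrane, was at 67.4, 60.3, 63.7 and 41.6 CPM against 29.5, 24.9 and 26.1 CPM (log2 -1.26, SE 0.15, edgeR adjusted p = 0.00289). Neither overlapped between groups. Others were Bpgm (-1.18), which makes the effector of haemoglobin 2,3-bisphosphoglycerate, the phosphate transporter Slc20a1 (-1.10), Tysnd1 (-1.09), a peroxisomal protease, Bpnt1 (-1.07), and Pde6h, AC154486.2 and 2810403D21Rik (-1.42, -2.18 and -1.09). AC154486.2 was at 45.5 and 43.0 CPM in the run 1 controls and 2.68, 12.8 and 10.8 CPM in the mutants. Its controls of runs 2 and 3 were at 0 and 8.57 CPM. For 2810403D21Rik the run 1 controls were at 84.8 and 116 CPM and the mutants at 57.6, 46.2 and 39.6 CPM. Its controls of runs 2 and 3 were at 28.5 and 55.1 CPM. Both genes thus overlapped between groups. Jun fell by 0.71 and lost its call when any of Bar19, Bar21, Bar22 or Bar23 was left out. Mitochondrially encoded genes, added here after their values were seen because mt-Cytb led by p, moved both ways: mt-Nd1 (-0.82) and mt-Nd4 (-0.67), of respiratory complex I, fell, while the tRNA genes mt-Ts2 (1.83) and mt-Tp (0.87) rose. The cytochrome b gene mt-Cytb was at 5493 and 5222 CPM in the run 1 controls and 3414, 3229 and 3379.7 CPM in the mutants (log2 -0.67, SE 0.05, edgeR adjusted p = 0.000359), but the controls of runs 2 and 3 were at 3127 and 3061 CPM.

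A pair of ribosomal protein pseudogenes topped the rises by fold. Rps15a-ps8 (log2 4.95) was at 253, 2.84 and 195 CPM in the mutants and at 3.81, 5.09, 183 and 1.22 CPM in the controls, and Rps13-ps1 (4.46) followed it sample by sample. Levels near 200 and near 5 CPM occurred in both genotypes and at E8.0 too. Whether reads of such copies were told apart from those of their parent genes was not tested.

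Etv2, which starts the endothelial and blood programme, rose at E9.5 (log2 3.74, SE 0.88, edgeR adjusted p = 0.0442; chr7:30633616-30635852, reverse strand), and the rise came from a handful of cells. It was at 6.43, 5.35, 0 and 0 CPM in controls and 176, 76.8 and 3.6 CPM in mutants, so the groups overlapped. All 131 Etv2 UMIs of Bar19 lay in 3 members and 107 of the 108 of Bar20 in its 3 highest. The call was lost without any of Bar19, Bar20, Bar22 or Bar23. Over all samples 21 of 1191 members (1.76%) had at least 3 Etv2 UMIs, and they came from both genotypes and every stage: 3 in Bar26, 1 in Bar27 and 3 in Bar28 at E8.0, 5 in Bar3 and 1 in Bar1 at E8.5, and 2 in Bar22, 1 in Bar23, 3 in Bar19 and 2 in Bar20 at E9.5. Of them 19 also had Kdr, the VEGF receptor of endothelial precursors. As a description, summed over these cells Kdr was at 316 CPM against 7.22 CPM in members without Etv2. Lmo2 and Tal1, regulators of blood and vessel precursors, were at 143 against 5.22 CPM and 21.4 against 2.16 CPM. Fli1, however, was nearly level at 24.7 against 23.9 CPM, and Egfl7 was at 56.0 against 32.2 CPM. Pecam1, a gene of formed endothelium, was at 29.7 against 28.8 CPM, but the rule, which asked for Tcf15 and left out cells with Cdh5, limits which cells could be seen here.

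At E8.0 6 of 9605 genes passed (0.0625%), 2 of them sex-linked, and 461 had an unadjusted p under 0.05. Besides Wls these were Rpl34, Rpl34-ps1 and BC030499. Rpl34 was at 1384, 1278 and 1243 CPM in controls and 567, 589 and 602 CPM in mutants (log2 -1.16, SE 0.07, edgeR adjusted p = 3.48e-07), and its pseudogene Rpl34-ps1 moved the other way by 0.93 (edgeR adjusted p = 0.00538). At E9.5 Rpl34 was at 1349, 655, 347 and 1455 CPM in controls and 1672, 764 and 797 CPM in mutants, so low and high levels occurred in both genotypes. BC030499 was at 8.55, 6.69 and 5.41 CPM against 30.5, 27.8 and 39.7 CPM (log2 2.32, SE 0.29, edgeR adjusted p = 0.00307), and with Tcf15 at 3 or more and Meox1 at 2 or more UMIs it did not pass. Myf5, the earliest muscle determination gene, was at 3.42, 12.8 and 6.08 CPM in controls and 24.4, 22.6 and 25.9 CPM in mutants. The groups did not overlap, but the gene did not pass (log2 1.48, SE 0.33, edgeR adjusted p = 0.267). Tulp3 (1.12, adjusted p = 0.0611), Ggps1 (0.44), Slc7a1 (-1.62), Gm13075 (-0.79) and Rps3a1 (-3.84) came next by p and did not pass the edgeR test.

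The test of the difference between the E9.5 and E8.0 genotype effects called 5 of 11422 genes (0.0438%). Letm1 (-1.33, SE 0.20, edgeR adjusted p = 0.0157) and Pinx1 (-1.19, SE 0.20, edgeR adjusted p = 0.0363) fell in E9.5 mutants and did not pass at E8.0 (log2 0.083 and -0.20), where Letm1 was at 47.9, 60.2 and 57.5 CPM in controls and 60.9, 59.6 and 60.1 CPM in mutants and Pinx1 at 116, 90.8 and 96.7 CPM against 92.9, 84.5 and 84.2 CPM. The E8.5 mutant was below its control for both, at 31.5 against 51.8 CPM and 70.9 against 105 CPM. mt-Cytb differed by -0.70 (edgeR adjusted p = 0.00755) and the translation factor Eef1a1 by 0.38 (edgeR adjusted p = 0.00842). Eef1a1 was at 6868, 7135, 7052 and 7365 CPM in E9.5 controls and 9325, 9009 and 9046 CPM in mutants, and at 7277 to 7969 CPM in all E8.0 samples. The fifth, the secreted protease Prss23 (1.95), lay under 20 CPM. Without Bar22 none of the 5 passed (789 genes had an unadjusted p under 0.05).

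Averaged over stages, 146 of 11457 genes passed (1.27%) and 70 were higher in mutants (0.611%). Pdk1 led by p (log2 1.37, SE 0.17, edgeR adjusted p = 0.000897) after Wls (-2.61, SE 0.18, edgeR adjusted p = 1.95e-07). Of the low-oxygen list 11 of 21 tested genes rose, with Ndufa4l2 at 3.19, Ddit4 at 1.93, Ndrg1 at 1.64 and Bnip3 at 1.59. Of the glycolysis list 3 of 17 rose (Pfkp, Slc2a3 and Gpi1, at 1.64, 1.30 and 0.42). Ndufa4l2, Ndrg1 and Pfkp, at control means of 6.52, 6.84 and 7.925 CPM, could enter the test through the mutants. Without Bar22 or without Bar23, 1 low-oxygen gene still passed, and no glycolysis gene passed when any 1 of Bar1, Bar3, Bar19, Bar20, Bar22 or Bar23 was left out, in run 1 alone or under a stricter rule (Tcf15 at 3 or more, Meox1 at 2 or more UMIs). Between 5 and 14 low-oxygen genes passed with any other 1 sample left out. The glycolysis count also moved up, to 7 without Bar25 or without Bar26. With a term for the share of male cells 9 glycolysis and 13 low-oxygen genes passed. Rises outside the lists were Sdc4, a heparan sulfate proteoglycan (1.38), Pgm1 (1.25), which links glycogen and glycolysis, and the mitochondrial serine tRNA gene mt-Ts2 (1.47). Falls were modest: Cul9 (-1.11), the epithelial keratin Krt8 (-0.90), Gm13075 (-0.78), Trmt61a (-0.72), Pinx1 (-0.70), Jun (-0.68), Slc20a1 (-0.64), Elac2 (-0.58) and Setd1b (-0.53). Krt8 was at 30.8, 25.6 and 27.7 CPM in E8.0 controls against 15.2, 15.6 and 15.6 CPM in mutants, with no overlap at that stage, where sex and genotype cannot be told apart. At E9.5 its control Bar4, at 3.35 CPM, lay below every mutant.

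From E8.0 to E9.5, 563 of 9653 genes were higher in members (5.83%) and 370 lower (3.83%). All E8.0 members came from run 1, and within run 1 alone 1445 genes passed in place of 933. Calls among dermomyotome genes were all rises and those among lateral and intermediate mesoderm genes all falls, while Hox and retinoic acid genes went both ways. Zic1, a dorsal somite and neural regulator, was at 0 to 5.79 CPM in the 6 E8.0 samples and 18.5 to 128 CPM in the 7 of E9.5 (log2 5.14, SE 0.54, edgeR adjusted p = 3.92e-06). Dlk1, an imprinted Notch-like ligand of embryonic mesoderm, was at 8.55 to 34.7 CPM against 228 to 738 CPM (log2 4.26, SE 0.25, edgeR adjusted p = 3.63e-09). Neither overlapped between stages, and the E8.5 samples, at 82.1 and 21.7 CPM of Zic1 and 186 and 169 CPM of Dlk1, were already above E8.0.

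Of 14 listed dermomyotome and myotome genes 7 were tested, of which 4 rose and none fell. At E8.0 Lbx1 was at a mean of 1.04 CPM, so it entered the test through E9.5. The count of rises is therefore not evidence about the list. Lbx1 rose by 4.00 (SE 0.48, edgeR adjusted p = 1.47e-05), Dmrt2 by 1.61, Pax3 by 1.14 and Myf5 by 0.92. Pax3 was found in 44.9% ± 9.90 (SD, n = 6) of thinned members at E8.0 and 56.0% ± 10.3 (SD, n = 7) at E9.5, Lbx1 in 0.791% ± 0.874 and 12.7% ± 7.06, and Pax7, a later dermomyotome gene, in 0.558% ± 0.867 and 7.81% ± 3.39. Myod1 was found in no thinned E8.0 member and in 1.72% ± 3.23 of those of E9.5. Of the 16 genes of the somite list 7 rose and 4 fell: Meox2 rose by 1.95 and Prrx1 by 0.97, while Foxc2 fell by 1.35 and Foxc1 by 0.46. Foxc2 was found in 81.1% ± 5.77 (SD, n = 6) of thinned members at E8.0 and 45.6% ± 14.2 (SD, n = 7) at E9.5. Of 6 sclerotome genes none rose and 2 fell, among them Hapln1 by 1.57.

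Of 39 listed Hox genes in the matrix 16 were tested, and 8 rose and 1 fell. Those that rose, which give positional identity along the body axis, were Hoxb9 (4.24), Hoxa7 (4.18), Hoxc8 (3.79) and Hoxb8 (2.90), and the paralogs Hoxa4 (2.46), Hoxc4 (1.56), Hoxb4 (1.51) and Hoxd4 (1.05). At E8.0 Hoxb9, Hoxa7 and Hoxc8 were at means of 0.894, 0.495 and 0.883 CPM, so they entered the test through E9.5. The retinoic acid list had 1 riser and 5 that fell of 10. Aldh1a2 (chr9:71215789-71296243) was at 348 to 618 CPM in the E8.0 samples and 43.1 to 115 CPM at E9.5, with no overlap (log2 -2.88, SE 0.21, edgeR adjusted p = 4.93e-08), and at 51.1 and 83.8 CPM at E8.5. The retinoic acid binding proteins parted, as Crabp1 fell by 1.84 and Crabp2 rose by 2.25. Few genes of lateral and intermediate mesoderm could be tested. Of 11 splanchnic genes 4 were tested and fell (Osr1 -2.92, Isl1 -1.73, Gata6 -1.30 and Foxf1 -1.24). Of 8 intermediate mesoderm genes 2 were tested and fell (Osr1 again, and Lhx1 -2.14). Genes low at both stages were left out by the count filter. A gene could enter through E8.0, where Isl1 was at 10.7 CPM against 2.58 CPM at E9.5. The count of falls is therefore not evidence about the lists. The segmentation genes Dll1 (-1.58) and Dll3 (-1.06) fell and none of 10 rose. Ifitm1, a gene of early mesoderm leaving the streak, fell by 3.37, the apelin receptor Aplnr by 3.06 and Wfdc21 by 5.61.

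Signalling and matrix genes moved both ways. Of 9 Hedgehog genes 3 fell, among them the pathway readouts Gli1 (-1.33) and Ptch1 (-1.22), and 3 rose, the coreceptors Gas1 (1.35), Boc (1.25) and Cdon (0.99). Of 20 matrix genes 6 rose, led by Col3a1 (2.49), and 4 fell, with Fn1 at -0.92. Of 5 tested genes of Wnt ligands and secretion Wnt6, a ligand of epithelial somites and ectoderm, rose by 2.76 and Wnt5a by 0.90, while Wls fell (-0.80). The low-oxygen list had 4 of 19 genes called higher at E9.5 (Ndrg1, Egln1, Mxi1 and Pdk1) in this fit over both genotypes, but its sum did not move that way in controls. It was at 788 ± 99.1 CPM (SD, n = 3) at E8.0 and 777 ± 49.5 CPM (SD, n = 4) at E9.5 in controls, against 918 ± 239 CPM (SD, n = 3) and 1710 ± 532 CPM (SD, n = 3) in mutants. Ndrg1 was at a mean of 6.61 CPM at E8.0 and 7.23 CPM at E9.5 in controls, and at 9.86 and 39.8 CPM in mutants. All 6 tested blood genes rose, Hbb-y by 1.96. Hbb-y was at 491 to 589 CPM in E8.0 samples and 624 to 6612 CPM at E9.5, and its part in other stage differences was not tested.

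**Figure D4:**
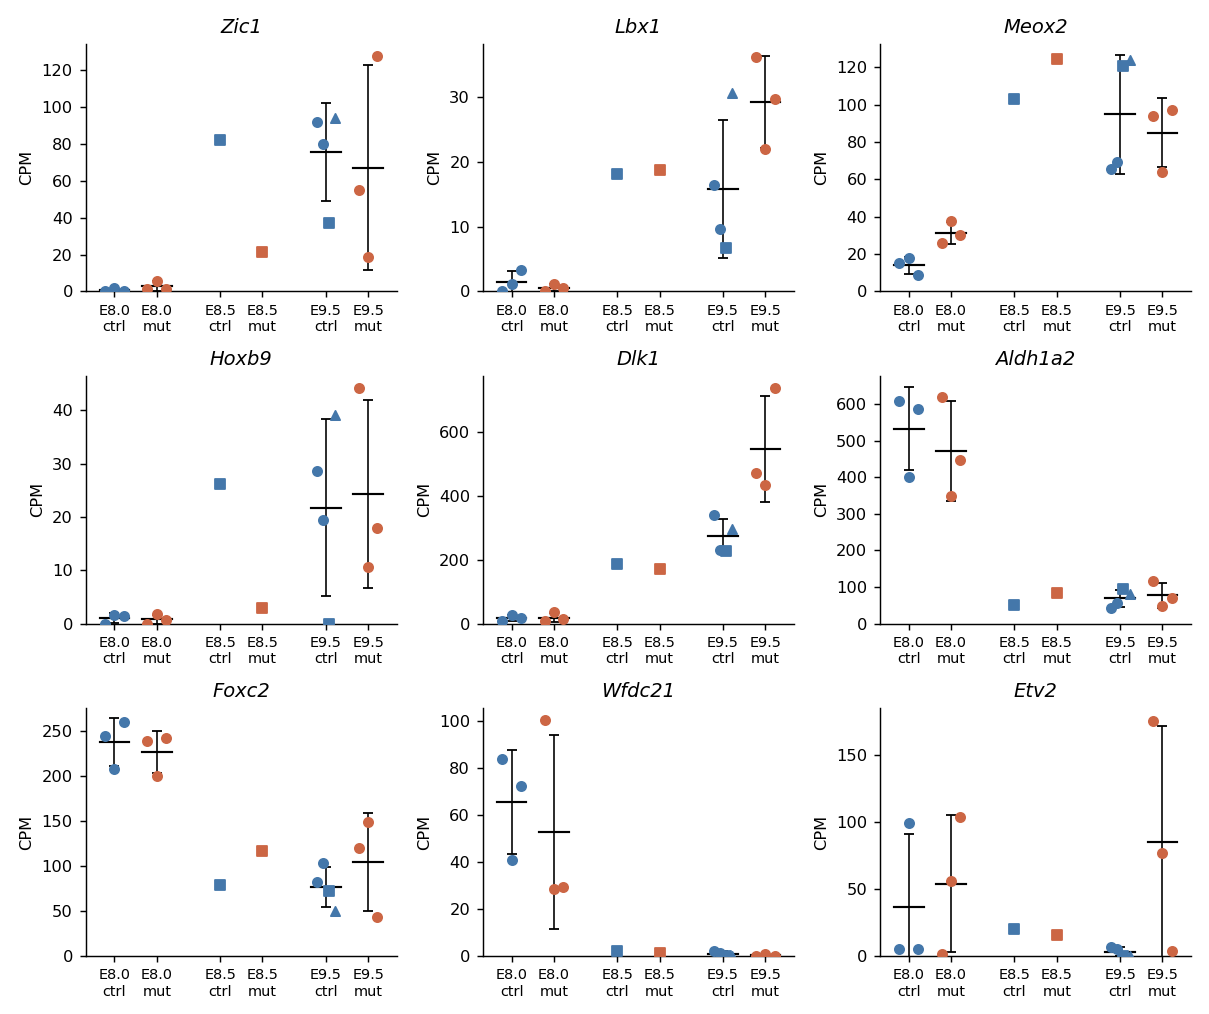
Levels in members (CPM) of 8 genes that changed between stages, and of Etv2, for each barcode sample at E8.0, E8.5 and E9.5 (blue control, orange mutant; circle run 1, square run 2, triangle run 3; bar mean, whisker SD). Zic1 runs from 0 to 5.79 CPM at E8.0 and from 18.5 to 128 CPM at E9.5, and Aldh1a2 from 348 to 618 CPM down to 43.1 to 115 CPM.

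Against Pax1-positive somitic cells of the same barcode samples, calls among dermomyotome genes were all higher in members, while most calls among sclerotome and matrix genes were lower. In 12 samples with at least 10 cells of each kind, tested as pairs without the genes of the rule, 339 of 9915 genes were higher in members (3.42%) and 365 lower (3.68%). Of 14 listed dermomyotome and myotome genes 7 were tested, of which 5 were higher and none lower. These were Lbx1 (log2 3.85, SE 0.31), Dmrt2 (2.99), Pax3 (2.38), Sim1 (1.32) and Myf5 (0.82). Lbx1, at a mean of 0.832 CPM in Pax1-positive cells, could enter the test through the members, so the count is not evidence about the list. Pax3 was at 149.5 CPM in members and 37.2 CPM in Pax1-positive cells (edgeR adjusted p = 1.18e-10). Of 6 sclerotome genes 4 were lower, among them Sox9 by 1.46, Pax9 by 1.40 and Fbn2 by 0.79 on the log2 scale, and Hapln1, a hyaluronan link protein, was higher (0.75). Since Pax1 chose the classes, genes tied to Pax1 had to part to some degree.

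Of the somite list 6 were higher, among them Pax3 and Dmrt2 with Prrx1 (1.17), Prrx2 (1.08) and Eya1 (0.64), and 8 were lower, among them Aldh1a2 (-1.69), Foxd1 (-1.01), Uncx (-0.94), Tbx18 (-0.91), Twist1 (-0.68), Foxc1 (-0.66) and Foxc2 (-0.60). Uncx and Tbx18 mark opposite somite compartments and were both lower in members. The BMP list had 4 of 9 higher and none lower, namely the antagonist Grem1 (2.78) and the response genes Id2 (1.00), Msx1 (0.84) and Id3 (0.79). The Wnt response list had 4 of 11 higher and none lower (Sp5 1.60, Cdx1 1.32, Lef1 0.58 and Tcf7 0.47), and Wnt6 (2.26) and Wnt5a (0.66) were higher as well. Of 10 Hedgehog genes the readouts Hhip (-1.43), Gli1 (-1.10) and Ptch1 (-0.95) were lower and Cdon (1.03), Gas1 (0.77) and Gli3 (0.54) higher. The Iroquois genes Irx1 (3.53), Irx5 (2.02) and Irx3 (1.83) were higher too, as was Lhx1 (2.57), known from intermediate mesoderm. Of 5 tested cranial mesoderm genes Tbx1 (1.88), known from pharyngeal mesoderm, and Alx1 (0.95) were higher, and Ebf2 (-0.62) was lower.

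Of 20 matrix genes 9 were lower in members, including Col3a1 (-0.95), Col1a1 (-0.75), Vcan (-0.56) and Col9a1 (-0.51), and Hapln1 and Fn1 (0.29) were higher. The low-oxygen list had none higher and 5 of 21 lower (P4ha2 -0.57, Ankrd37 -0.53, P4ha1 -0.46, Vegfa -0.45 and Bnip3l -0.21). Kdr was higher in members (1.91, SE 0.29, edgeR adjusted p = 4.66e-05), at 19.8 against 2.41 CPM, and the Etv2-bearing members described above carry Kdr. Wls did not pass (-0.22, SE 0.15, edgeR adjusted p = 0.52). The largest fall was that of AI646519 (-4.18), at 3.44 against 54.1 CPM. With both classes thinned to 10000 UMIs a cell, 346 genes passed in place of 704.

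**Figure D5:**
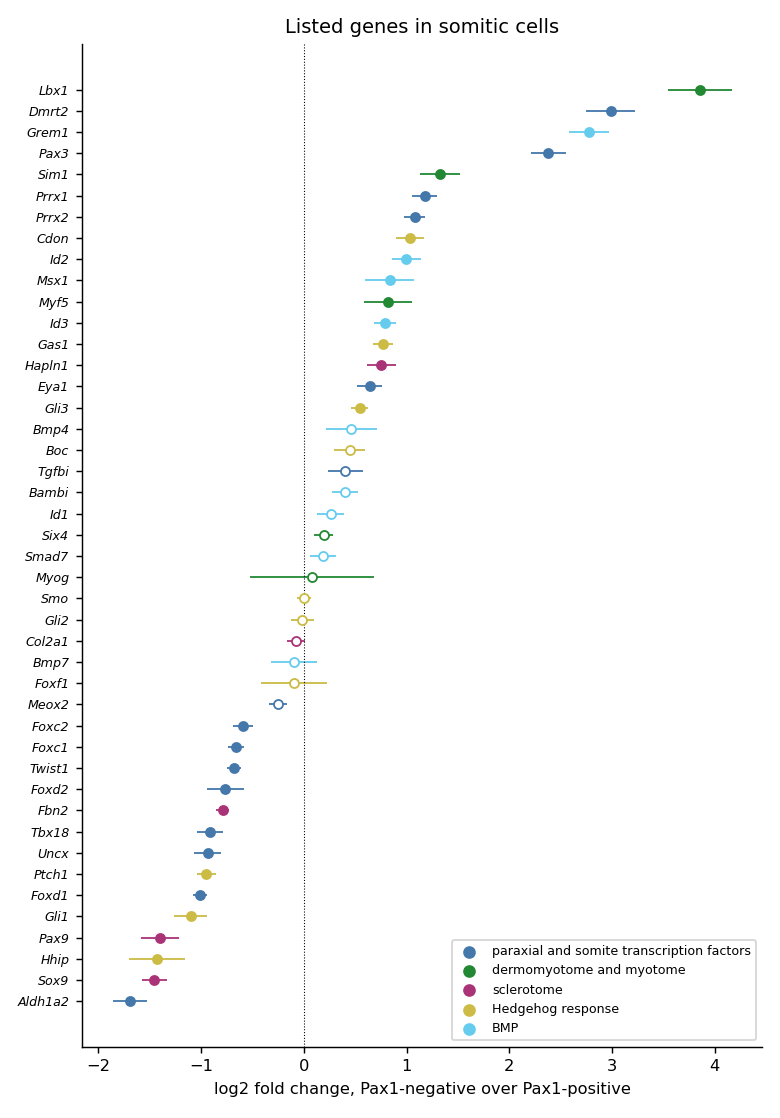
Log2 fold change of members over Pax1-positive somitic cells of the same samples for genes of 5 lists, not all of which are drawn, with the SE as a bar; filled points passed the edgeR test (adjusted p under 0.05), colours give the list, and a gene of several lists is drawn under 1 of them. Dermomyotome genes such as Lbx1 (3.85) and Pax3 (2.38) lie to the right, and sclerotome genes such as Sox9 (-1.46) and Pax9 (-1.40) to the left.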

How the data were processed

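Per the labels' protocols, tdTomato-positive cells of dissociated, MULTI-seq barcoded embryos were captured with 10x Chromium v3 and sequenced on a NextSeq500 or a NovaSeq6000. The submitters' processing notes name kallisto, bustools 0.46.1, Cell Ranger and GRCm38. The deposited matrix holds UMI counts of 51923 genes per cell, with the authors' table of run, barcode, stage and genotype. How strand, doublets and cell filters were treated is not given in the sources used here, and no doublet caller was run.

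Members were found by their raw counts, and their counts were summed per barcode sample. Sums of at least 10 members were tested with edgeR 4.0.16 (filterByExpr, TMM, quasi-likelihood F test, R 4.3.3) with Benjamini-Hochberg adjustment over all genes tested and a threshold of 0.05. Run was a term (genotype at E9.5 and over stages, where stage was one too), genotype was a term for stage, and the barcode sample was the block against Pax1-positive cells. CPM are UMIs per 1000000 of the summed cells and were used for display only. Shares were tested by exact permutation within runs and stages with Python 3.11.15 and scipy 1.17.1. Named genes were Wls, the 10 largest rises and falls among genes past the threshold with 20 CPM in the higher group, and every passing gene of the gene lists; where under 5 genes passed, the 5 rises and 5 falls of smallest p were given. At E8.0, the values of smallest p were given beside the calls. The members and the lists were chosen with earlier results of these data known. Alternatives were DESeq2 1.42.0, RLE factors, no low-count filter, other minimum cell numbers, a stricter rule (Tcf15 at 3 or more, Meox1 at 2 or more), thinning to 10000 UMIs, run 1 alone, a term for the share of male cells, no cells above 2 times the median UMIs, and each sample left out in turn. The tests were checked on simulated counts. Positions are from GENCODE M21 (GRCm38). UMIs count molecules. The SE of a fold is its absolute log2 value divided by the square root of the quasi-likelihood F statistic. The spread between samples in that statistic is moderated across genes. A sample labelled E7.5, with 28 cells, held no member. Some genes are not reported here.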

Additional observations from a re-analysis of the deposited data

Results flagged for a closer look

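In 7 of 56 E9.5 groups of 4 to 6 samples looked at, 1 sample stood far from the others, where chance gives about 1 in 20. Each value is the gap to the nearest sample as a share of the group's range. Among controls, the Pax1-positive share of somitic cells was lowest in Bar4 (0.946). Bar9, of the shallow run 3, was the highest control for Hk2 (0.931), for the summed Wnt response genes (0.832) and for the summed immediate early and heat shock genes (0.944), where Jun was at 429 CPM. Bar4 was the highest control for Pfkl (0.97). The highest control also stood apart for Bnip3l (0.831) and for the summed heart muscle genes that the rule did not use (0.842). Neither Bar4 nor Bar9 has a mutant partner with 10 members in its run, so neither bears on the genotype folds at E9.5.

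A set of 5 genes had a genotype effect that differed between E9.5 and E8.0 by the edgeR interaction test: mt-Cytb (-0.70), Eef1a1 (0.38), Letm1 (-1.33), Pinx1 (-1.19) and Prss23 (1.95), in log2 units. Each of the 5 calls was lost without the E9.5 control Bar22.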

How the results depend on the processing

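Member share, all stages (log2 odds -0.025, exact permutation p = 0.926): thinning gave 0.035, leaving out cells above 2 times the median UMIs 0.0016, a minimum of 20 cells 0.056, the stricter rule -0.15, and leaving out 1 sample -0.18 to 0.066. The E9.5 share was 0.58 in run 3 alone, -0.44 under the stricter rule, -0.20 after thinning and -0.44 (without Bar7) to 0.017 (without Bar19) with 1 sample left out, the E8.0 share 0.41 after thinning, 0.34 under the stricter rule and -0.17 (without Bar24) to 0.42 (without Bar25), and the Pax1-positive share -1.26 under the stricter rule, -0.28 in run 3 alone and -1.09 to -0.63 with 1 sample left out. Genotype calls over stages (146) became 234 with DESeq2, 645 with no low-count filter, 295 with at least 5 cells, 35 under the stricter rule, 34 in run 1 alone, 74 with a male-share term, and 3 (without Bar23) to 281 with 1 sample left out. At E9.5, 371 became 119, 1011, 410, 137, 361 and 191 in that order and 27 (without Bar23) to 458. DESeq2 gave an adjusted p for 4 of 21 low-oxygen genes at E9.5, of which 3 passed. The genes called were not always the same. Of the 146 over stages, 113 were also called with DESeq2 and 25 with the male-share term. Of the 371 at E9.5, 118 were also called with DESeq2 and 130 with the male-share term. Calls at E8.0 (6) became 83 with no filter and 5 to 14 with 1 sample left out. Interaction calls (5) became 30, 163, 17 and 2 with DESeq2, no filter, at least 5 cells and the stricter rule, and 0 (without Bar22) to 17. Stage calls (933) became 1445 in run 1 alone and 727 to 1253; calls against Pax1-positive cells (704) became 346 after thinning and 547 to 730. Of the 30 interaction calls with DESeq2, 2 were among the 5. With a male-share term Rps15a-ps8 at E9.5 turned to -0.64. The cause of these shifts was not tested.

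Named genes kept direction and call in 451 of 638 alternative values over stages, 517 of 646 at E9.5, 118 of 130 at E8.0, 190 of 225 for the interaction, 1948 of 2056 for stage and 1650 of 1776 against Pax1-positive cells. Only 4 of 10 named genes at E8.0 and 4 of 11 for the interaction were calls, and the others counted as kept where they stayed uncalled. Some alternatives could hardly differ. A minimum of 20 members kept the same samples in the genotype and stage fits, and Bar4 and Bar9 do not bear on the E9.5 genotype folds. No paired analysis was possible because barcode numbers do not tie samples across genotypes or stages; the comparison with Pax1-positive cells was paired by barcode sample throughout. Where 1 sample left an arm with 1 sample, that sample is assumed to vary like the others. Between 20 and 229 members per tested sample limit what low genes can show: in simulated data 61% of genes changed by 1 log2 unit were recovered at E9.5, 72% at E8.0 and 44% for the interaction.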
